A study of Mus musculus with 8 samples.

Results

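The 10 core genes that make, restrain and break down polyamines were followed in the colon of mice with colitis, of 53465 genes listed in the deposited table. They were chosen by name, from their roles in the pathway and not from measured values: Odc1, the antizymes Oaz1 and Oaz2, the antizyme inhibitor Azin1, Amd1, Srm, Sms, Sat1, Smox and Paox. All 10 were matched by Ensembl ID, and all 10 had a mean level above the minimum for testing. The study compared 4 libraries from B6 mice with a conditional, cell-specific deletion of Arg1 (Arg1 ko) and 4 from littermates that kept Arg1 (wild type), matched for age and sex. All mice were 7 to 12 weeks old, drank 2.5% dextran sulfate sodium (DSS), which injures the colon epithelium, for a week and then plain water, and were sampled on day 10, so every library comes from injured tissue in recovery and none from an untreated mouse. The sources used here name neither the Cre driver nor the cells that lost Arg1. The tissue is labelled colon, and the protocol isolated sheets of epithelium with 30 mM EDTA before RNA extraction. Each library is labelled as a sample of its own, but not as a mouse of its own, so the p-values reflect only the scatter among these samples, which may be partly technical.

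Arginase splits arginine into urea and ornithine, and ornithine is the substrate from which Odc1, ornithine decarboxylase, makes putrescine. Srm and Sms, the spermidine and spermine synthases, extend putrescine with aminopropyl groups that Amd1 prepares from S-adenosylmethionine. Rising polyamines induce antizymes, which bind ornithine decarboxylase and send it to the proteasome, while Azin1, a catalytically inactive relative of the decarboxylase, binds antizymes in its place. Sat1 acetylates spermidine and spermine, which marks them for export or for oxidation by Paox, and Smox oxidises spermine directly, releasing hydrogen peroxide. In the gut, polyamines support epithelial renewal, and several of these genes are controlled in translation or protein stability, which RNA levels do not measure.

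The antizyme messages carry the best-known control of the pathway in their own sequence. Their reading frame is interrupted by a stop codon, and polyamines promote a shift of the ribosome by a single base at that stop, so that full-length antizyme is made only after the shift. GENCODE vM21 encodes this by leaving 1 base out of the annotated coding transcripts. The skipped T lies at position 80828295 of chromosome 10 in Oaz1 and at position 65686272 of chromosome 9 in Oaz2 (GRCm38, plus strand for both). The 61 bases around it, 30 to each side, are shown as coding strand DNA read from transcripts that keep the base, with the last codon before the shift and the TGA stop in capitals.
Oaz1: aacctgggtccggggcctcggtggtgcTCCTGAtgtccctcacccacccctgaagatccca
Oaz2: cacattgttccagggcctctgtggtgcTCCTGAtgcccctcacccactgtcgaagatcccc
The paralogues are identical at 49 of these 61 bases. The RNA values below count transcripts of both genes without regard to the reading frame used.

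Promoter windows of 300 bases, 250 before and 50 after the start in RefSeq (GRCm38.p6), were found for 8 of the 10 genes. They are shown for 4 genes that the comparisons below turn on: Odc1 and Sat1, which open synthesis and breakdown, and the antizyme pair. The GC box GGGCGG, on either strand and with overlapping matches counted, is in capitals.
Odc1, chr12:17544623-17544922, plus strand: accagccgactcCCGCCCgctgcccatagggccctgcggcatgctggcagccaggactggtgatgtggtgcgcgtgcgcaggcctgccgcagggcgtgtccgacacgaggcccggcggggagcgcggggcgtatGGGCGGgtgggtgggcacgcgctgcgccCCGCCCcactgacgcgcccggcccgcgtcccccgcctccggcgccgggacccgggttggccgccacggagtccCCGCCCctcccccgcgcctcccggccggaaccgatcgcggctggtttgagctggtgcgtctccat
Sat1, chrX:155216400-155216699, minus strand: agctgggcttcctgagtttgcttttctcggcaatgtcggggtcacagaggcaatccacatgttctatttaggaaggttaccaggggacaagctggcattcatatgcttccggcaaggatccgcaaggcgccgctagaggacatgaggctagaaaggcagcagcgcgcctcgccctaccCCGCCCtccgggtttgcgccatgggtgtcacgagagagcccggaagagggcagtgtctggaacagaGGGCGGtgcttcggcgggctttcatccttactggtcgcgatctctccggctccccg
Oaz1, chr10:80826406-80826705, plus strand: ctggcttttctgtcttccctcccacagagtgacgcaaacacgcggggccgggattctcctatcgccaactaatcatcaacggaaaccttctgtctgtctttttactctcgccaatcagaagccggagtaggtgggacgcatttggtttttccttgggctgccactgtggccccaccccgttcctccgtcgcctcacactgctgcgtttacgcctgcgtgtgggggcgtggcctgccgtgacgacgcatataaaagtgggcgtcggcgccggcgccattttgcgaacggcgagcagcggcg
Oaz2, chr9:65676298-65676597, plus strand: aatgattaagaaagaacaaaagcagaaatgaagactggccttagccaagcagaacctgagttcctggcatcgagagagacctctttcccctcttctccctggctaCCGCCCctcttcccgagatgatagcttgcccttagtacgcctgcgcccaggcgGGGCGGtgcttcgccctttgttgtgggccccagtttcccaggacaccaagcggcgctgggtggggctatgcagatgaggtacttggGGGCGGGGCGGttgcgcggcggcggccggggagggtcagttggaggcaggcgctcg
Odc1 and Oaz2 each held 4 GC boxes, Sat1 held 2 and Oaz1 held none. The 8 genes had 10 windows, of which 8, from 7 genes, held at least 1 GC box. Over all 32851 windows of that length in the RefSeq table the share was 35.7%. GC content was 78.0% in the Odc1 window and 60.3% in that of Sat1, against a median of 52.7% over all windows. The E-box CACGTG, the palindromic element bound by Myc, was in 1 window of Sms and in 7.15% of all windows. These matches describe letters within the windows and not binding, and elements further into a gene than 50 bases were not searched.

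Facts of the libraries bear on every comparison that follows. Arg1 was at 5.59, 5.57, 5.02 and 5.58 rlog (regularised log2, a log2 scale on which small counts are drawn toward the gene's mean) in wild type 1 to 4 and at 4.87 to 5.19 in the 4 Arg1 ko libraries. The library labelled wild type 3 thus lay within the ko range for the deleted gene, against its label. Wild type 1 and 2 stood apart in another way: the mean of 76 ribosomal protein genes was 0.68 and 0.40 above the 8-library mean there and between -0.364 and 0.105 in the other 6 libraries. In the same 2 libraries the deviation from the mean was lower the longer the transcript, with a slope of -0.211 and -0.108 per doubling of length, while the slope was between 0.0149 and 0.0864 elsewhere. All 10 epithelial markers were expressed, with mean rlog from 5.5 to 18.0, but fibroblast (9.25 to 13.2), smooth muscle (12.7 to 14.8), macrophage (7.39 to 12.9) and endothelial (8.29 to 10.5) markers were expressed too, so the RNA came from mixed tissue in which fewer cells of a type and less RNA per cell cannot be told apart. The mean of the 8 fibroblast markers lay apart between the groups, from -0.283 to 0.08 in wild type and from 0.115 to 0.167 in Arg1 ko. Of the 8, 6 were higher in Arg1 ko, beside 51.2% of all tested genes. An unadjusted limma p under 0.05 in that direction was found for 3 of 8, and for 774 of all 16380 tested genes. Col1a1, Col1a2 and Col3a1 lay entirely above wild type in Arg1 ko, a pattern that 2.36% of all tested genes showed. Dcn, Lum, Pdgfra, Pdgfrb and Thy1 overlapped. The part of these markers in the results was not tested. All 4 Y-linked markers were expressed in every library, and Xist was at 6.31 in wild type 1 against 3.23 to 3.98 in the other 7. The sample numbers form separate runs for the genotypes, and any batch that follows them and the genotype cannot be told apart.

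Per transcript length, the antizyme Oaz1 and the acetyltransferase Sat1 stood highest and Paox lowest. Levels are compared here as rlog minus log2 of the length in kb of the longest coding transcript. Oaz1 had 12.03 ± 0.32 (SD, n = 8 libraries) and Sat1 11.99 ± 0.34 (SD, n = 8), and the ranges of these 2 genes overlapped. Odc1 followed at 10.64 ± 0.20 (SD, n = 8), with Azin1 at 10.42 ± 0.31 (SD, n = 8), again overlapping. Oaz2, at 9.42 ± 0.19 (SD, n = 8), lay below both, so that within the antizyme pair Oaz1 was the higher by 2.60 ± 0.32 (SD, n = 4) in wild type and by 2.62 ± 0.12 (SD, n = 4) in Arg1 ko. Smox (8.90), Amd1 (8.41) and Srm (8.36) formed the next group, in which neighbours overlapped. The spermine synthase Sms (6.15) and Paox (5.94) were lowest, apart from the others and overlapping each other. Gaps without overlap separated Sat1 from Odc1, Azin1 from Oaz2, and Srm from Sms. Among all tested genes on the same scale, Oaz1 stood above 97.7% and Paox above 35.7%. Which transcript was in use is not known from values per gene, so an order within a group carries little weight.

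**Figure D1:**
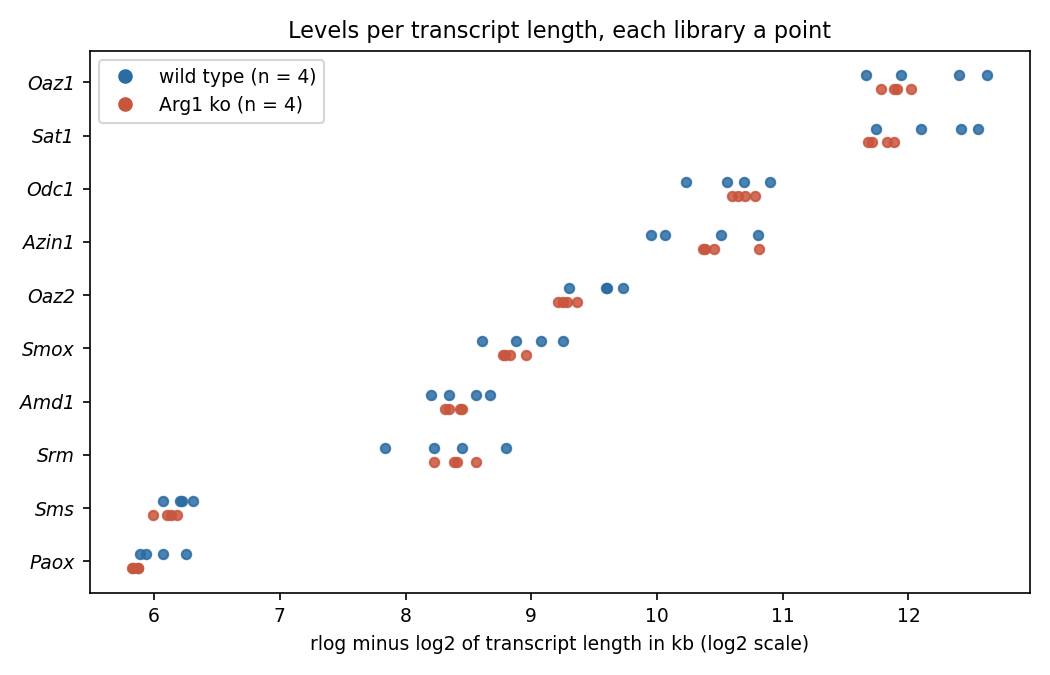
Level of each polyamine gene per transcript length (horizontal axis, rlog minus log2 of kb; each point a library, wild type blue and Arg1 ko red, n = 4 each). Oaz1 and Sat1 lie near 12, Odc1 and Azin1 between 9.96 and 10.90, and Sms and Paox near 6; within most genes the wild-type points spread more widely than the ko points.

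The design sets Arg1 ko against wild type, which asks here whether RNA of any of these genes differed when Arg1 was deleted. No polyamine gene passed the test (limma, 0 of 10 with an adjusted p under 0.05, where percent called over all 16380 tested genes was 0). Odc1, Azin1 and Srm had a positive difference and the other 7 genes a negative one, with a median of -0.107, beside a median of 0.0064 and 48.8% negative differences over all tested genes. The unadjusted limma p was under 0.05 for 2 of the 10, Oaz2 (0.0245) and Sat1 (0.0264), both lower in Arg1 ko, and for 4.37% of all tested genes in that direction (9.1% in either direction). The 4 ko values lay entirely below the 4 wild-type values in 1 gene, Paox, a pattern that 1.67% of all tested genes showed. The genes share libraries and move together, so these counts are not independent of one another.

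**Figure D2:**
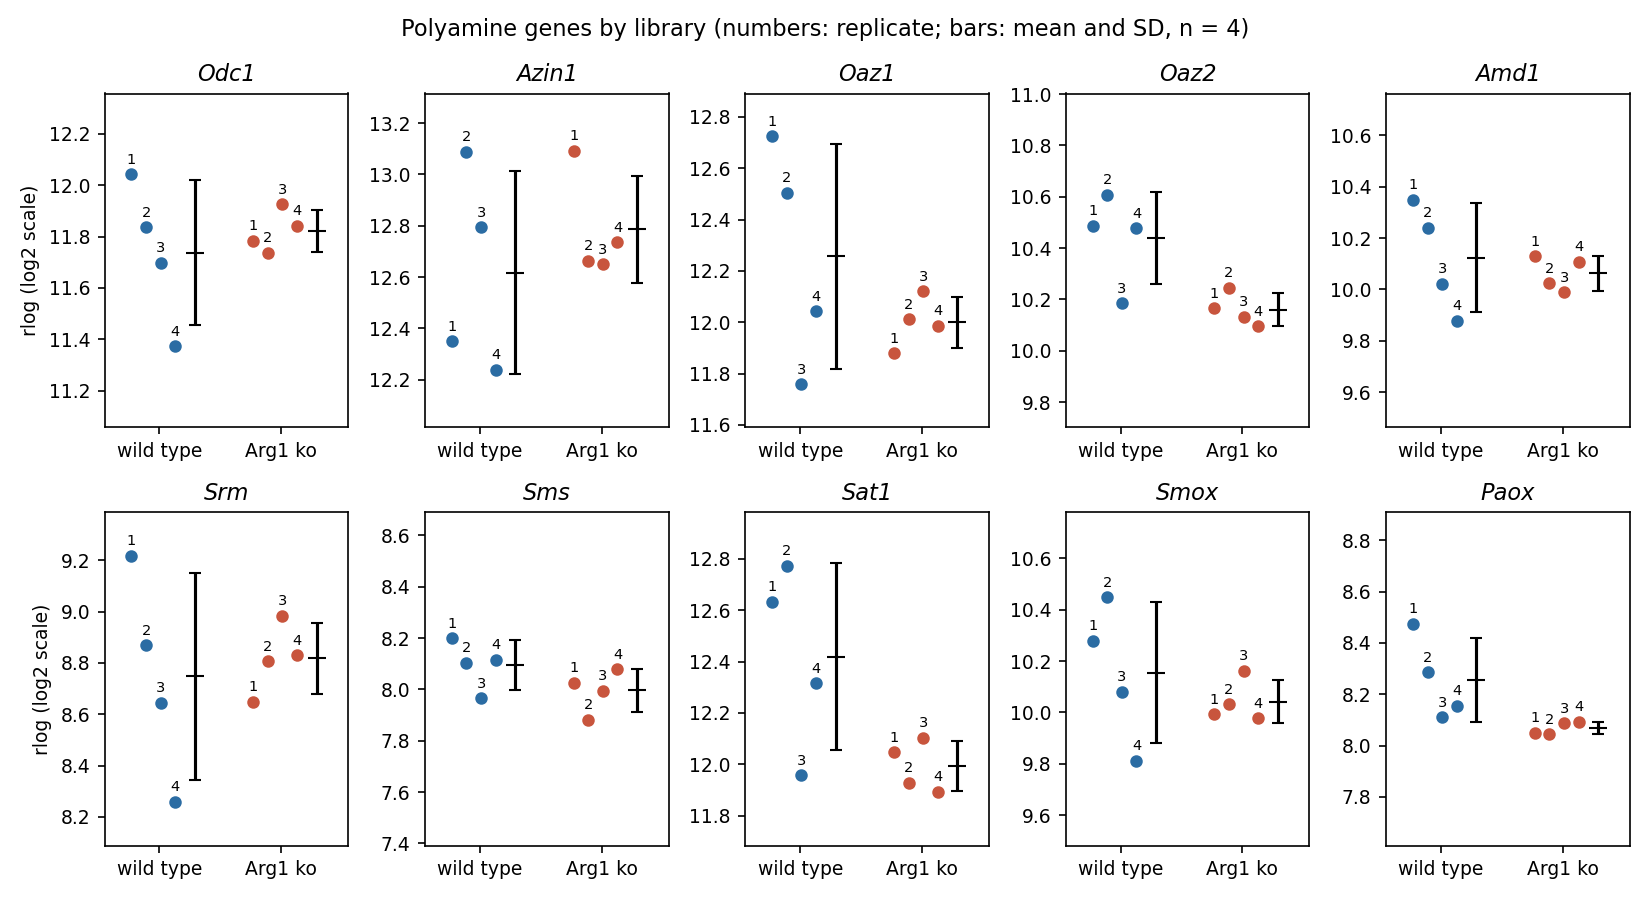
Values of the 10 polyamine genes (vertical axes, rlog, all spanning the same range) in 4 wild-type (blue) and 4 Arg1 ko (red) libraries, numbered by replicate, with mean and SD beside them. Wild type 1 and 2 are high for Oaz1 and Sat1 while the library labelled wild type 3 sits among the ko points, and the ko points are close together in most genes.

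Odc1 RNA differed little between the groups. Odc1 (ENSMUSG00000011179, chromosome 12, 17544794 to 17551505, plus strand, GRCm38) was at 12.04, 11.84, 11.70 and 11.37 rlog in wild type 1 to 4 and at 11.78, 11.74, 11.93 and 11.84 in Arg1 ko 1 to 4. The ko libraries all lay inside the wild-type range, whose lowest value was that of wild type 4. The difference was 0.08 with a standard error of 0.14 and a 95% interval from -0.22 to 0.39 (limma adjusted p = 0.795). Without wild type 1 and 2 the difference was 0.29 (limma adjusted p = 0.374).

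The antizymes were lower in Arg1 ko on average, and the antizyme inhibitor was higher, all short of the threshold. Oaz1 (ENSMUSG00000035242, chromosome 10, 80826656 to 80829290, plus strand) was at 12.72, 12.50, 11.76 and 12.04 in wild type and at 11.88, 12.01, 12.12 and 11.99 in Arg1 ko. It was high in wild type 1 and 2 only, and its lowest value of all came from the library labelled wild type 3. Oaz1 differed by -0.26 with a standard error of 0.19 (limma adjusted p = 0.582), and the value was -0.10 after correction for transcript length and GC and 0.10 without wild type 1 and 2. Oaz1 is a short message, of 1071 bases.

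Oaz2 (ENSMUSG00000040652, chromosome 9, 65668001 to 65690300, plus strand) was at 10.49, 10.61, 10.18 and 10.48 in wild type and at 10.16, 10.25, 10.13 and 10.10 in Arg1 ko. Of the wild-type libraries 3 lay above all ko values, and the remaining one, labelled wild type 3, lay among them. Oaz2 differed by -0.28 with a standard error of 0.11 and a 95% interval from -0.51 to -0.04 (limma adjusted p = 0.522). When the library labelled wild type 3 was left out it was -0.36 and passed the test (limma adjusted p = 0.041, range over the alternatives 0.041 to 0.819), as did Sat1, which made 2 of the 10 genes. By the same fit 6.14% of all tested genes passed, 3.28% being lower in Arg1 ko, and leaving out the wild-type library nearest to the ko values enlarges the difference by construction. Oaz2 also kept its direction without wild type 1 and 2 (-0.17) and after the length and GC correction (-0.20).

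Azin1 (ENSMUSG00000037458, chromosome 15, 38487427 to 38519266, minus strand) scattered widely in wild type. It was at 12.35, 13.09, 12.79 and 12.24 in wild type and at 13.09, 12.66, 12.65 and 12.74 in Arg1 ko. Wild type 1 and 4 were low, wild type 2 and Arg1 ko 1 were high, and the groups overlapped. The difference was 0.17 with a standard error of 0.19 (limma adjusted p = 0.706) and was 0.04 after the correction for length and GC.

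Genes of the aminopropyl branch differed by 0.10 or less in size with all 8 libraries, and Srm by more under some alternatives. Srm (chromosome 4, 148591503 to 148594993) was at 9.22, 8.87, 8.64 and 8.26 in wild type and at 8.65, 8.81, 8.98 and 8.83 in Arg1 ko, with all ko values inside the wild-type range. The difference was 0.07 with a standard error of 0.18 (limma adjusted p = 0.878). It was 0.22 after correction for length and GC and 0.37 without wild type 1 and 2 (limma adjusted p = 0.374). Amd1 (chromosome 10, 40287458 to 40302186) was at 10.35, 10.24, 10.02 and 9.88 in wild type and at 10.13, 10.02, 9.99 and 10.11 in Arg1 ko, a difference of -0.06 ± 0.11 (SE). Sms (chromosome X, 157443855 to 157492287) varied least of the 10 over the libraries, from 7.96 to 8.20 in wild type and from 7.88 to 8.08 in Arg1 ko, a difference of -0.10 ± 0.10 (SE). For Srm and Amd1 wild type 1 was the highest and wild type 4 the lowest library, as for Odc1. Amd1 has a near-identical gene copy, Amd2, and processed pseudogenes. Amd2 was listed at a mean rlog of 1.61 and Amd-ps3, the Amd1 copy with the highest value, at 3.88. Oaz1 likewise has a pseudogene, Oaz1-ps, at a mean of 5.58. How reads that match several places were counted is not stated, so the split of reads between these genes and their copies is uncertain.

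Sat1, the acetyltransferase that starts polyamine breakdown, showed the largest difference of the 10, lower in Arg1 ko and short of the threshold. Sat1 (ENSMUSG00000025283, chromosome X, 155213132 to 155216449, minus strand) was at 12.63, 12.77, 11.96 and 12.32 in wild type and at 12.05, 11.93, 12.10 and 11.89 in Arg1 ko. Wild type 1, 2 and 4 lay above every ko library, and the library labelled wild type 3 lay among the ko values. Sat1 differed by -0.43 with a standard error of 0.16 and a 95% interval from -0.79 to -0.06 (limma adjusted p = 0.522). The difference was -0.58 with the library labelled wild type 3 left out, where it passed (limma adjusted p = 0.0364, range over the alternatives 0.0364 to 0.819), and, like Oaz2, it was enlarged there by construction. It was -0.29 after the correction for length and GC and -0.14 without wild type 1 and 2.

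The libraries with high Sat1 were also those with more signal from red blood cells and ribosomal protein genes. The mean of 4 red blood cell genes deviated by 1.30, 0.853 and 0.287 in wild type 1, 2 and 4, by -0.723 in the library labelled wild type 3, and by -0.769 to 0.00951 across the ko libraries. None of these 4 was at 0, and their mean rlog ran from 8.26 to 12.7. The 7 tested of 8 neutrophil markers, Cxcr2 being below the minimum, deviated by -0.308 to 0.878 in wild type, with the top in wild type 2, and by -0.375 to -0.103 in Arg1 ko. Sat1 is X-linked, and wild type 1, which held more Xist, was second to wild type 2 in Sat1. Their part in the Sat1 result was not tested.

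Both polyamine oxidases had negative differences. Paox (chromosome 7, 140115799 to 140137224, plus strand), the oxidase of acetylated polyamines, was at 8.47, 8.29, 8.11 and 8.15 in wild type and at 8.05, 8.04, 8.09 and 8.09 in Arg1 ko. The groups did not overlap, but the gap between the lowest wild-type value, in the library labelled wild type 3, and the highest ko value was narrow, and the difference of -0.19 with a standard error of 0.11 did not pass (limma adjusted p = 0.536). It was -0.12 without wild type 1, the highest library, and -0.06 without wild type 1 and 2. Smox (chromosome 2, 131491496 to 131525922, plus strand), the spermine oxidase, was at 10.28, 10.45, 10.08 and 9.81 in wild type and at 9.99, 10.03, 10.16 and 9.98 in Arg1 ko, a difference of -0.11 ± 0.13 (SE). Wild type 4 was its lowest library and wild type 2 its highest, and the ko values lay between them.

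**Figure D3:**
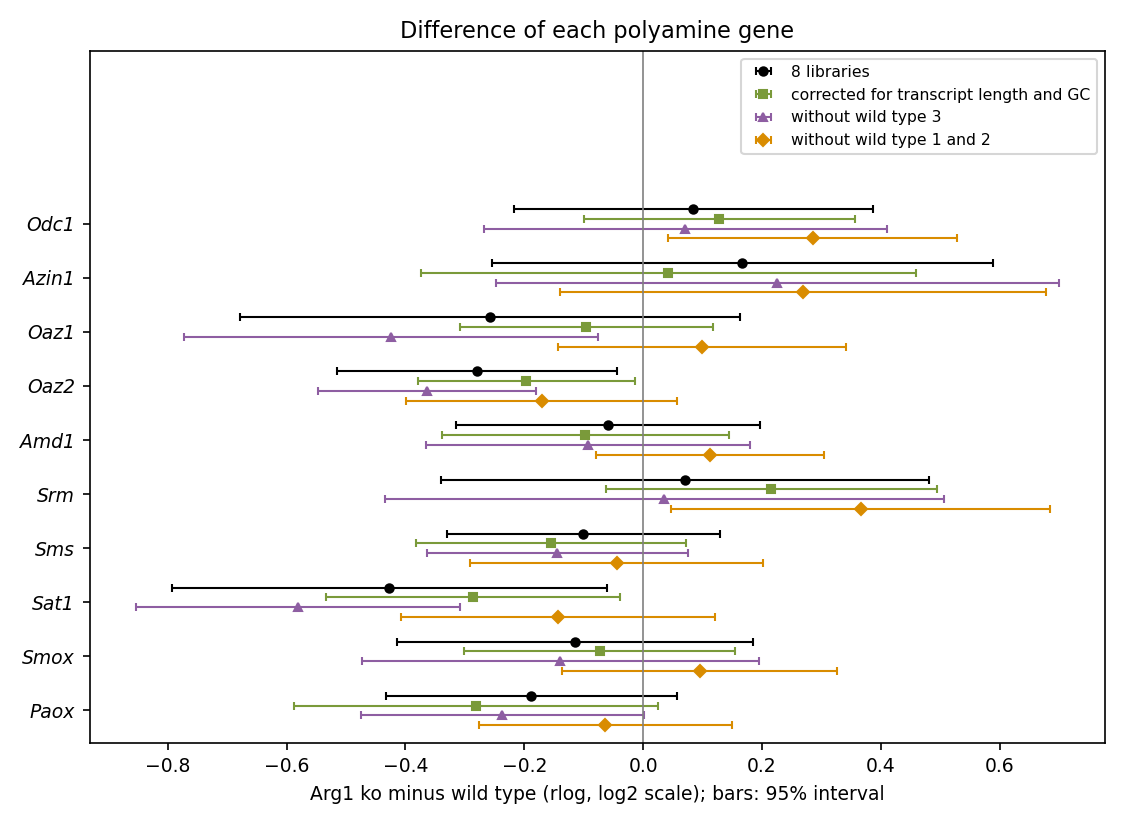
Arg1 ko minus wild type for each polyamine gene (horizontal axis, rlog; bars are 95% intervals from limma) in 8 libraries, after correction for transcript length and GC, without the library labelled wild type 3, and without wild type 1 and 2. With 8 libraries the intervals of Oaz2 and Sat1 leave out 0 before adjustment, without the library labelled wild type 3 that of Oaz1 does so too, and without wild type 1 and 2 only those of Odc1 and Srm do, on the positive side.

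Differences between genes within a library cancel a scaling common to all genes of that library, and set synthesis beside breakdown. They do not cancel a trend with transcript length such as that in wild type 1 and 2. These pairs were chosen by role after the values had been seen and carry no test. On the per-length scale Odc1 lay below Sat1 in every library, and Odc1 minus Sat1 averaged -1.61 ± 0.33 (SD, n = 4) over wild type and -1.10 ± 0.09 (SD, n = 4) over Arg1 ko. Its values were -1.52, -1.86, -1.19 and -1.87 in wild type 1 to 4 and -1.19, -1.12, -1.10 and -0.98 in Arg1 ko 1 to 4. The library labelled wild type 3 met the lowest ko value, and the other wild-type values lay below all ko values. The shift of 0.51 toward Odc1 in Arg1 ko was between 0.42 and 0.65 under the alternatives that could change it. The lowest value came after correction for transcript length and GC, the highest without the library labelled wild type 3. A change of only the filter, the variance moderation or the library medians cannot alter a difference within a library. Srm minus Sat1 moved by 0.50 and Odc1 minus Oaz2 by 0.36 in the same direction, with overlapping groups. Odc1 minus Srm moved by 0.01, from 2.27 ± 0.13 to 2.28 ± 0.09 (SD, n = 4 each), and Oaz1 minus Oaz2 by 0.02.

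The wild-type libraries differed among themselves more than the ko libraries did, in the polyamine genes as in the table as a whole. The SD was larger in wild type for all 10 genes, and for 90.9% of all tested genes. Its median over the 10 genes was 0.278 among the wild-type and 0.0835 among the ko libraries, beside 0.258 and 0.096 over all tested genes. Wild type 1 held the highest value of 6 of the genes and wild type 2 of 3, and the highest Azin1 value was in Arg1 ko 1. Wild type 4 held the lowest value of 5 genes, Odc1, Azin1, Amd1, Srm and Smox. Wild type 2 was above the 8-library mean in all 10 genes, and the library labelled wild type 3 in 1, Azin1.

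Across the 8 libraries the genes formed patterns that crossed the arms of the pathway. Odc1 and Srm were the most alike of the 45 pairs (Pearson r = 0.967 over 8 libraries). Sat1 went with Oaz2 (r = 0.918) and Oaz1 (r = 0.876), and Oaz1 with Paox (r = 0.909), each over 8 libraries. Odc1 and Sat1, the enzymes that open synthesis and breakdown, had r = 0.210 over the same 8, and 0.512 once each group's mean was removed. Azin1 had its highest value with Smox (r = 0.373) and negative values with Oaz1 (-0.224), Oaz2 (-0.213), Sat1 (-0.0848), Sms (-0.325) and Paox (-0.320). With group means removed, its value was 0.510 with Smox, stayed negative with Oaz1 (-0.115), Sms (-0.208) and Paox (-0.172), and was 0.019 with Oaz2 and 0.163 with Sat1. These values are descriptions over 8 libraries that share depth, scaling and the features of wild type 1 and 2 given above.

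**Figure D4:**
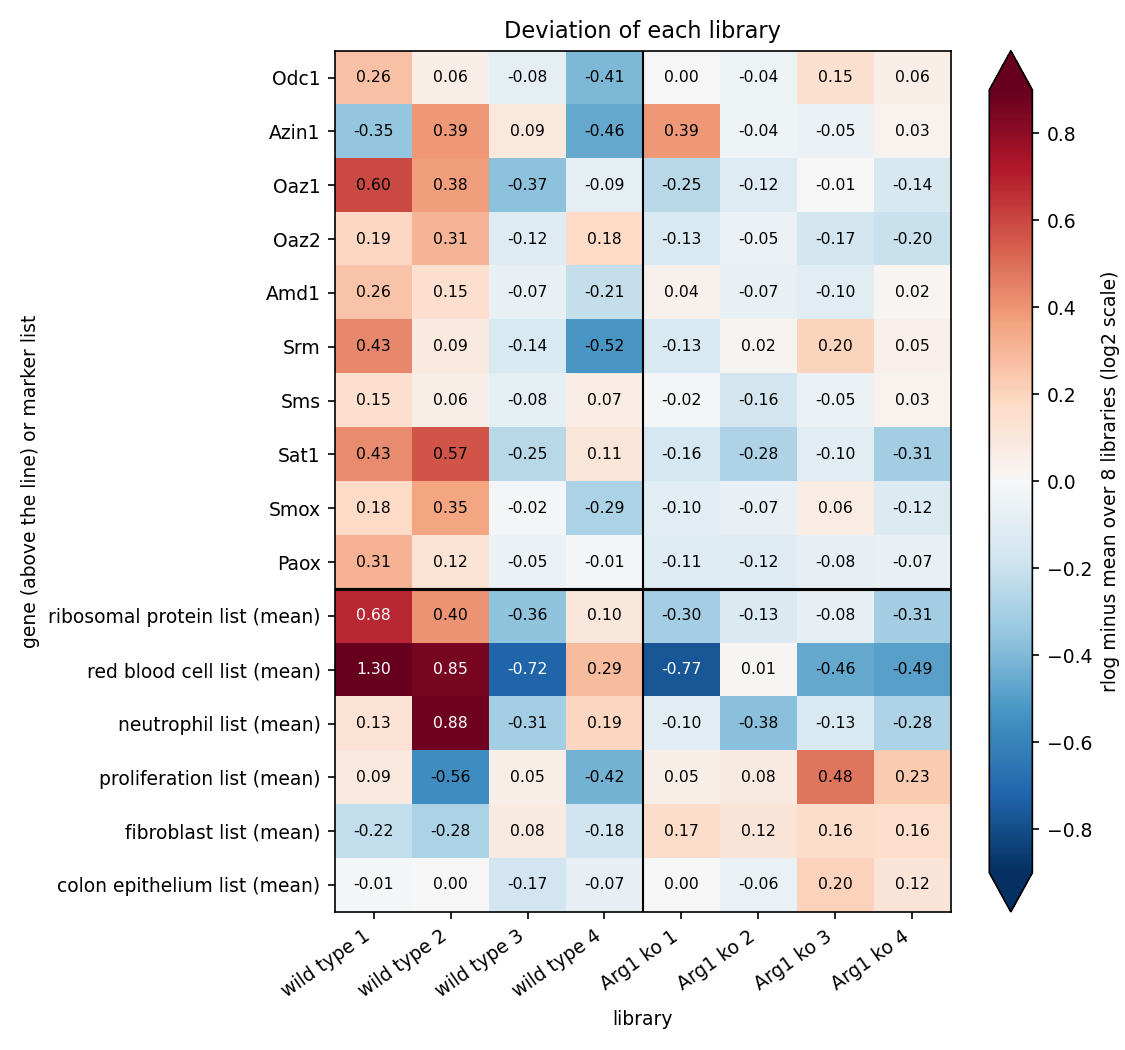
Deviation of each library (columns) from the 8-library mean, in rlog, for the 10 polyamine genes (upper rows) and the means of 6 marker lists (lower rows); red is above the mean and blue below. Oaz1 and Sat1 are highest in wild type 1 and 2, as are the ribosomal protein and red blood cell lists, and Odc1 and Srm are lowest in wild type 4.

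The genes most like Odc1 and Sat1 were sought among 14250 protein-coding genes by Pearson r over the 8 libraries. For Odc1 they were Rcn3 (0.996), an endoplasmic reticulum calcium-binding protein, the histone deacetylase Hdac2 (0.983), the co-chaperone Fkbp4 (0.983), Mrrf (0.981), the mitochondrial ribosome recycling factor, and Ifrd2 (0.979). Like Odc1, Fkbp4 was highest in wild type 1 (12.49), lowest in wild type 4 (11.70) and between 12.22 and 12.42 in Arg1 ko. For Sat1 they were the red cell enzyme Bpgm (0.991), Tmem45b (0.987), the RNA polymerase III subunit Polr3gl (0.986), Zfyve19 (0.986) and Ei24 (0.982). Bpgm was at 11.15, 11.20, 10.66 and 10.84 in wild type and at 10.58 to 10.67 in Arg1 ko, the order of libraries seen for Sat1 in wild type. A value above 0.9 was reached by 358 genes with Odc1 and by 662 with Sat1, so likeness at this number of libraries is common.

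Around the core, 37 further genes of ornithine supply, methionine use, hypusination, transport and terminal breakdown were read, with Myc, a known activator of Odc1. Of these, 30 were tested and 0 passed (limma adjusted p under 0.05). At an unadjusted p under 0.05 were 3 of the 30, a share near the 9.1% of all tested genes: Myc, higher, and Arg1 and Slc3a2, lower. Differences were positive in 11 and negative in 19, with a median of -0.0989, beside 48.8% negative and a median of 0.0064 over all tested genes. The 7 genes below the minimum included Oaz3, the testis antizyme, and Satl1, which was listed at 0 in all libraries.

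Arg1, which encodes the deleted arginase, had means of 5.44 ± 0.28 (wild type) and 5.07 ± 0.14 (Arg1 ko; SD, n = 4 each), and its difference of -0.37 stayed short of the threshold (limma adjusted p = 0.522). With the library labelled wild type 3 left out it was -0.51 and passed (limma adjusted p = 0.0418, range over leaving out each library -0.51 to -0.31), enlarged by construction as for Sat1 and Oaz2. Arg2, the mitochondrial arginase, was at 10.84, 11.17, 10.49 and 10.65 in wild type and at 10.38 to 10.69 in Arg1 ko, a difference of -0.26. It was -0.13 without wild type 2, its highest library, and -0.04 without wild type 1 and 2. Oat, which converts ornithine toward glutamate and proline, was nearly level, at 12.24 ± 0.10 (SD, n = 4) and 12.24 ± 0.12 (SD, n = 4), and Slc25a15, the mitochondrial ornithine carrier, differed by 0.01.

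Myc was at 9.10, 8.92, 9.14 and 8.23 in wild type and at 9.51, 9.20, 9.26 and 9.18 in Arg1 ko. The 4 ko values lay above all wild-type values, a pattern that 2.36% of all tested genes showed, and the difference was 0.44 with a standard error of 0.19 (limma adjusted p = 0.522). Wild type 4 was low, and without it the difference was 0.24. Wild type 4 was the lowest library of Odc1 too (11.37). Unlike in Myc, wild type 1 was the highest library in Odc1 and the ko values lay inside the wild-type range. A link between Myc and Odc1 RNA in these libraries was not tested. Max, the partner of Myc, differed by -0.22 and Mycn by -0.23. Of the 8 proliferation markers 7 had a positive difference, beside 51.2% of all tested genes. Their median difference was 0.509, beside 0.0064 over all tested genes. An unadjusted limma p under 0.05 in that direction was found for 5 of 8, and for 774 of all 16380 tested genes. The marker mean deviated by -0.562 to 0.0863 in wild type and by 0.0501 to 0.482 in Arg1 ko. The part of these markers in the Myc value was not tested.

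The transporters included both directions. Slc3a2, the heavy chain of amino acid exchangers that has also been linked to polyamine export, was at 10.97, 11.30, 10.97 and 11.16 in wild type and at 10.79, 10.89, 10.75 and 10.80 in Arg1 ko. All ko values lay below all wild-type values, as in 1.67% of all tested genes. Its difference of -0.29 with a standard error of 0.10 did not pass (limma adjusted p = 0.522). Atp13a3, a P5B-type ATPase of polyamine uptake, differed by 0.34 with a standard error of 0.19. It was low in wild type 1 (10.99) and 2 (11.24) and between 11.66 and 11.97 in the other 6. After correction for transcript length and GC its difference was 0.16, and without wild type 1 and 2 it was -0.02. The part of transcript length in the Atp13a3 value was not tested. Atp13a2, the lysosomal polyamine exporter, differed by 0.16, and by 0.09 without wild type 1. Its lowest ko value and highest wild-type value were nearly equal (both 9.30), with all ko values above, as in 2.36% of all tested genes.

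All 4 hypusination genes had negative differences with 8 libraries, beside 48.8% of all tested genes. Dhps and Dohh encode the enzymes that form a spermidine-derived residue on the translation factor eIF5A, which Eif5a and Eif5a2 encode. Dohh differed by -0.31, Dhps by -0.14, Eif5a by -0.16 and Eif5a2 by -0.16. After correction for length and GC the values were -0.17 (Dohh), -0.0041 (Dhps), -0.0285 (Eif5a) and -0.29 (Eif5a2). In Dohh, Dhps and Eif5a wild type 1 was the highest library (7.92, 9.43 and 13.88), and the differences of these 3 were positive without wild type 1 and 2 (0.02, 0.10 and 0.18). Among the genes that supply and recycle S-adenosylmethionine, Mat2b, the regulatory subunit of its synthase, differed by -0.24, and Mat2a, the catalytic subunit, by 0.14 with a wide scatter (12.77 ± 0.59 and 12.92 ± 0.23, SD, n = 4 each). Mat2a followed Azin1 across libraries, a likeness noticed after the values had been seen (r = 0.933 over 8 libraries, the fourth highest of 14249 genes). Enoph1 (-0.02) and Adi1 (-0.12), enzymes of methionine salvage, were close to level. Azin2, a second antizyme inhibitor, differed by -0.24 and Agmat, an agmatinase near the minimum level, by 0.03. Of the breakdown genes, Aoc1, the diamine oxidase that degrades putrescine in the gut, was at 10.71 to 11.32 in wild type and at 11.01 to 11.29 in Arg1 ko, a difference of 0.17. Sat2 differed by -0.18 and the polyamine deacetylase Hdac10 by -0.04.

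**Figure D5:**
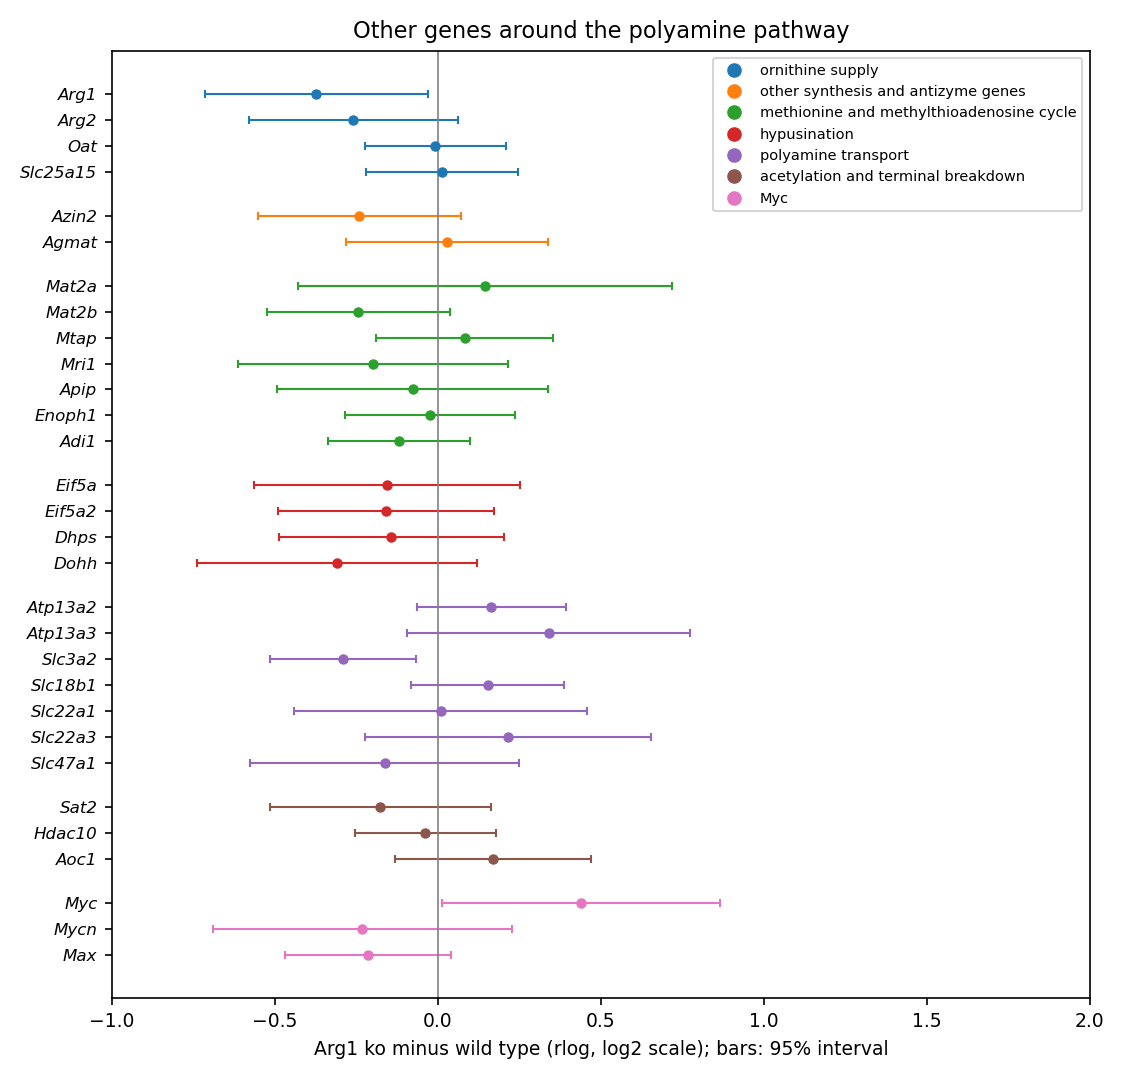
Arg1 ko minus wild type (horizontal axis, rlog; points with 95% limma intervals) for 30 tested genes around the polyamine pathway, coloured by list. The unadjusted intervals of Arg1, Slc3a2 and Myc leave out 0, none passes after adjustment, and all 4 hypusination genes lie on the negative side, of which 3 turn positive without wild type 1 and 2.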

How the data were processed

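A stranded mRNA kit and 1000 ng of RNA per sample were used, per the labels' protocols. DESeq2 1.16.1, featureCounts, Subread 1.5.3, BWA 0.7.14-r1136 and STAR 2.5.2b are named in the submitters' processing notes, with the build GRCm38; the sources used here give no order, options or strand setting. The authors deposited 1 table of regularised log2 values (rlog), which hold no counts. Depth is therefore unknown, and values carry no counting intervals. Differences of weakly expressed genes are understated on this scale.

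Genes were named from GENCODE vM21 (GRCm38), and 53274 of 53465 IDs had a symbol. Fitted were the 16380 genes that varied and averaged 3 or more in rlog. The fit used limma 3.58.1 in R 4.3.3 (group term, trended prior, two-sided, Benjamini-Hochberg at 0.05). It was also run on simulated data with independent genes and equal scatter in both groups. These libraries differ from that setting, so no conclusion is drawn from it. Length correction took out a spline fit of each library's deviations on transcript length and GC. Lists were described by counts and medians, without a list test. Named are all 10 polyamine genes, Arg1, Arg2, Oat and Myc, of each further list up to 3 members with the highest mean and up to 2 with the smallest p, and the 5 genes most like Odc1 and Sat1. The members, lists and alternatives were chosen with earlier results of these data known. Sequences came from RefSeq (GRCm38.p6) and GENCODE vM21.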

Additional observations from a re-analysis of the deposited data

Results flagged for a closer look

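Among 66 groups of 4 libraries, from 33 genes, 1 held a value far from the others, where chance gives about 1 in 20 such groups. Arg1 was at 5.02 in the library labelled wild type 3, while the other wild-type libraries lay between 5.57 and 5.59. The same library was nearest to the Arg1 ko values in Sat1, Oaz2 and Paox. No polyamine gene held such a value in either group.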

How the results depend on the processing

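No paired analysis was possible because the labels give the groups no shared replicate numbers. Each polyamine gene was recomputed under 16 alternatives, and 152 of 160 values kept their direction and their side of the threshold. Alternatives that changed only the filter or the variance moderation left every difference unchanged. The direction was thus fixed in advance there, and these counts include such settings. Azin1, Oaz2, Paox, Sat1 and Sms kept their direction under all 16. Without the library labelled wild type 3, limma called 1005 genes and 2 polyamine genes, Oaz2 and Sat1; the other single libraries left out gave 0 of both, so the range was 0 to 1005 genes and 0 to 2 polyamine genes. Without 1 library at a time, Odc1 ranged from -0.0373 to 0.19, Srm from -0.0925 to 0.23 and Amd1 from -0.14 to 0.0159, with the opposite sign to 8 libraries without wild type 4 for Odc1 and Srm and without wild type 1 for Amd1. Without wild type 1 and 2 together the sign was opposite for Oaz1 (0.10), Amd1 (0.11), Smox (0.10), Eif5a (0.18), Dhps (0.10), Dohh (0.0238), Sat2 (0.0504), Enoph1 (0.12), Oat (0.0343), Mycn (0.00098), Atp13a3 (-0.0208) and Aoc1 (-0.0085). After correction for length and GC it was opposite for Enoph1 (0.0540), Oat (0.0324) and Slc25a15 (-0.0310), and after quantile normalisation for Oat (0.0579), Slc25a15 (-0.0058) and Agmat (-0.0057). With library medians aligned, which moved the median of all genes to -0.0231, it was opposite for Slc25a15 (-0.0169) and Agmat (-0.00078). Leaving out 1 library at a time, Mat2a ranged from -0.11 to 0.34, Enoph1 from -0.12 to 0.0507, Oat from -0.0515 to 0.0268, Slc25a15 from -0.0489 to 0.0731 and Agmat from -0.0432 to 0.12. By the same measure Azin1 ranged from 0.04 to 0.32, Oaz1 from -0.42 to -0.10, Smox from -0.23 to -0.02, Sms from -0.14 to -0.06, Atp13a3 from 0.18 to 0.51, Mat2b from -0.35 to -0.14, Dohh from -0.48 to -0.18, Dhps from -0.25 to -0.02, Eif5a from -0.27 to -0.0032 and Eif5a2 from -0.24 to -0.05. The cause was not tested. Depth is unknown, so what it limits cannot be stated in counts.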
